A study of Arabidopsis thaliana with 41 samples.

Results

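The genes described here are those of the mitochondrial genome of Arabidopsis thaliana, taken as every row of the deposited gene tables whose identifier begins with ATMG. There were 134 such rows among 32865, of which 128 held counts in at least 1 library and 6 held none. The study asked what the histone acetyltransferase complex NuA4 does in Arabidopsis, and sequenced ribosomal RNA-depleted total RNA from rosette leaves 5 to 6, pooled from at least 6 plants per biological repeat. The groups were Atepl1-2, with Cas9 frameshift deletions in both AtEPL1A and AtEPL1B, which encode the Enhancer of Polycomb-like scaffold protein of NuA4, then Ateaf1-1, with a deletion that joins AtEAF1A to AtEAF1B as a frameshifted chimera, then glk (glk1-1 glk2-1), which lacks a pair of transcription factors for nuclear plastid genes, and wild-type Col-0 (WT). All plants were grown in long days, and each mutant genotype was represented by 1 allele or combination of alleles.

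The libraries carry 2 kinds of label. A first set held Atepl1-2 replicates 1, 3 and 4 and WT replicates 5, 7 and 8, and a second set held Atepl1-2 replicates 1, 3 and 4, Ateaf1-1 replicates 1 to 3, glk replicates 1 to 3 and WT replicate 4. What separates the sets is not given in the sources used here, so set and genotype cannot be told apart wherever second-set mutants are compared with first-set WT. First-set Atepl1-2 was therefore compared with first-set WT alone, and the second-set genotypes with all 4 WT libraries and, for Atepl1-2 and Ateaf1-1, also with glk of their own set. Comparisons that use the same WT, glk or mutant libraries are not independent of each other.

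Plant mitochondrial genomes encode a small part of the respiratory chain, of the ATP synthase, of the cytochrome c maturation pathway and of the mitochondrial ribosome, together with tRNAs, rRNAs and many open reading frames of unknown function. The remaining subunits of those complexes are nuclear genes whose proteins are imported. In the Col-0 nuclear genome a large copy of mitochondrial DNA lies near the centromere of chromosome 2, so reads from a mitochondrial transcript can match a nuclear gene model as well.

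The sequences below show why rows were not equally certain. Each is the first 100 bases of a coding sequence, 5′ to 3′, with the start codon in capitals, from the RefSeq TAIR10.1 assembly, whose mitochondrial record may differ from the TAIR10 sequence behind the deposited tables. For nad9 (mitochondrion, 24665 to 24764, plus strand) and ccmB (mitochondrion, 18335 to 18434, minus strand), no stretch of chromosome 2 matched at 90% identity or more. For cob (mitochondrion, 182759 to 182858, minus strand, and the nuclear gene AT2G07727, chromosome 2, 3450863 to 3450962, plus strand) and for atp9 (mitochondrion, 271086 to 271185, minus strand, and AT2G07671, chromosome 2, 3251981 to 3252080, minus strand) the mitochondrial and nuclear sequences had 0 mismatches.
nad9: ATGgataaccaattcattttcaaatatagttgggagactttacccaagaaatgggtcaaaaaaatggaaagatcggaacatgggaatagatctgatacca
ccmB: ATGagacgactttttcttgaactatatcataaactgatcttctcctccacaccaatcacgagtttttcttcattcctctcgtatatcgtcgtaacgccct
cob: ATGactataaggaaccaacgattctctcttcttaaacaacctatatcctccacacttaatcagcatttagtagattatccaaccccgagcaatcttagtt
AT2G07727, copy of cob: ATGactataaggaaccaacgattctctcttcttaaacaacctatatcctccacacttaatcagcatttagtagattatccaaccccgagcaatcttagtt
atp9: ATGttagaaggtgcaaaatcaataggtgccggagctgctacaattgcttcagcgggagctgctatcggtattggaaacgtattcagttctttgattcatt
AT2G07671, copy of atp9: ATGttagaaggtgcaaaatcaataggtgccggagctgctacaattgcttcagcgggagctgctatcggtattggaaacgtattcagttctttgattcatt

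Of 33 coding sequences in the RefSeq mitochondrial record, 22 were covered over more than 99% of their length by chromosome 2, and 13 had a single full-length match there without a mismatch. Only nad9, ccmB, cox1 and atp4 had no match on chromosome 2, and rps3 was covered over 14.4% of its length. Of nad9, 19.5% matched elsewhere in the nuclear genome. Counts on rows with a full copy, cob and atp9 among them, depend on how the quantifier divided reads between both places.

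Total estimated counts ran from 22330141 to 39666320 per library, and 154044 to 724083 of these lay on ATMG rows. Chloroplast rows, whose identifiers begin with ATCG, took 40.2% to 65.6% of all counts. Of the leaf markers, RBCS1A, the small subunit of Rubisco, stood at 5109 to 12274 CPM (counts scaled to 1000000 counts outside ATCG rows) in all libraries. RCA ran from 1687 to 8258 CPM, CAB1 from 5736 to 28113 and LHCA1 from 1369 to 7143. All of these were high in every library, so the leaf label held, but their levels differed between groups. RCA stood at 7164 to 8258 CPM in first-set WT and 1723 in WT replicate 4, and CAB1 at 5736 to 6832 in glk and 27319 in WT replicate 4. The seed storage gene CRA1 reached at most 4.48 CPM. PYK10, a root gene, stood at 8.59 to 33.3 CPM in first-set Atepl1-2 and 0.284 to 0.970 CPM in first-set WT, and in the second set at 117 to 149 in Atepl1-2, 78.4 to 181 in Ateaf1-1, 45.7 to 87.4 in glk and 10.0 in WT. STM, a shoot meristem gene, stood at 4.06 to 15.1 CPM in the second-set mutants and glk, at 0 to 0.289 CPM in first-set Atepl1-2 and at 0 in every WT library. AP3, a petal and stamen gene, reached 5.40 to 7.98 CPM in glk and at most 0.652 CPM elsewhere. The part of these markers in the results below was not tested, and in bulk leaves a change in cell makeup and a change in RNA per cell cannot be told apart.

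The mitochondrial share of all counts was higher in each mutant than in WT. In first-set Atepl1-2 it was 1.17%, 1.21% and 1.06%, against 0.640%, 0.699% and 0.720% in first-set WT. In second-set Atepl1-2 it was 1.83%, 1.76% and 1.58%, in Ateaf1-1 1.80%, 1.64% and 1.84%, and in glk 0.955%, 0.825% and 0.890%, against 0.764% in second-set WT. The groups did not overlap in any comparison. The ratio of the means was 1.67 in the first set, and 2.44 for second-set Atepl1-2, 2.49 for Ateaf1-1 and 1.26 for glk against the 4 WT libraries (two-sided exact permutation test, p = 0.0286 for each of the last 3). With 3 libraries against 4, 0.0286 is the smallest p the test allows, so it does not rank these ratios. With 3 libraries against 3, as in the first set and against glk, the smallest p the test allows is 0.1, and each such p was 0.1.

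The chloroplast share differed as well. ATCG rows took 54.8% ± 1.15 of counts in first-set Atepl1-2 against 62.3% ± 2.99 in first-set WT (SD, n = 3 each), 49.9% ± 5.02 in second-set Atepl1-2 and 46.8% ± 5.72 in Ateaf1-1, against 62.6% ± 2.54 in WT (SD, n = 3, 3 and 4), while glk at 62.7% ± 1.59 lay at the WT level. Shares are therefore given below over counts outside ATCG rows.

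On that scale the mitochondrial share was 2.58%, 2.61% and 2.41% in first-set Atepl1-2, against 1.60%, 2.03% and 1.85% in first-set WT, a ratio of 1.39. Second-set Atepl1-2 held 3.32%, 3.50% and 3.51%, Ateaf1-1 3.61%, 2.74% and 3.67%, and glk 2.48%, 2.32% and 2.35%, against 2.10% in second-set WT. No group overlapped with its WT libraries. Over all 4 WT libraries (1.90% ± 0.224, SD) the ratio was 1.82 for Atepl1-2, 1.76 for Ateaf1-1 and 1.26 for glk (exact permutation p = 0.0286 each), and over WT replicate 4 alone it was 1.64, 1.59 and 1.13, with no test. Against glk, the ratio was 1.45 for Atepl1-2 and 1.40 for Ateaf1-1, with no overlap (exact permutation p = 0.1, the smallest possible). Ateaf1-1 replicate 2, the lowest of its group, was also the library with the most counts on ENSRNA rows, 8.85% against 4.01% and 3.19% in the other Ateaf1-1 libraries.

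**Figure D1:**
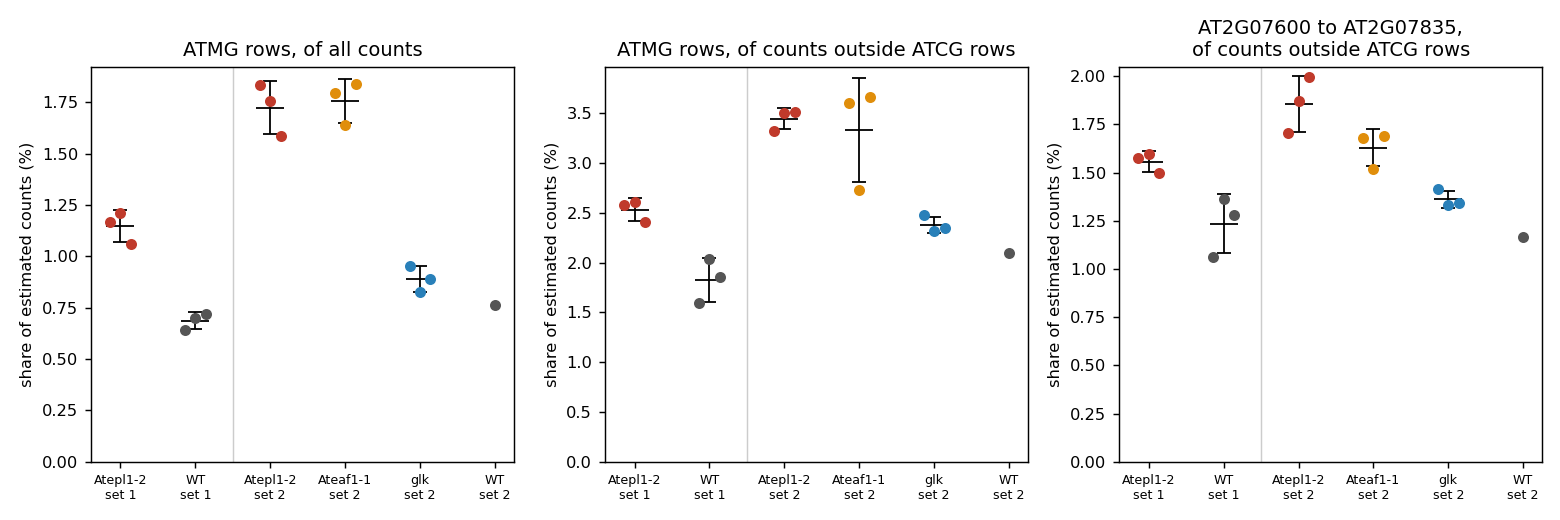
Mitochondrial share of estimated counts in each library, as a percentage of all counts (left) and of counts outside ATCG rows (middle), with the nuclear rows AT2G07600 to AT2G07835 on the right. Each point is 1 library, lines are the group mean ± SD, and a grey line parts the label sets. Outside ATCG rows the Atepl1-2 libraries of the second set sit between 3.32% and 3.51%, above glk at 2.32% to 2.48% and WT at 1.60% to 2.10%.

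A share is relative to whatever else was counted, and the typical nuclear gene also moved on this scale. The median nuclear gene, as log2 ratio of CPM outside ATCG rows, was higher by 0.29 in first-set Atepl1-2, by 0.41 in second-set Atepl1-2, by 0.42 in Ateaf1-1 and by 0.59 in glk than in WT, and lower by a log2 of -0.18 in both mutants than in glk. The edgeR fits with TMM scaling place that median near 0. A row with a larger share can therefore lie near or below 0 in the fit. In glk, where the summed share was 1.26 times that of the 4 WT libraries, most rows were lower than in WT on the share scale as well (78 lower, 48 higher), and the median log2 fold change of the tested rows in the fit was -0.74. That median moved with the WT libraries used: it was 0.03 against WT replicate 4 alone, of the same label set, and -0.93 without WT replicate 4. The low rows in glk therefore cannot be told apart from a difference between label sets.

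A few rows made up most of the larger share. In first-set Atepl1-2 the difference from WT was 0.705 percentage points of counts outside ATCG rows, and the 8 largest contributors held 73.0% of it. ATMG01360 alone, at 0.479% in Atepl1-2 and 0.313% in WT, gave 23.5%. The next were nad9, a subunit of NADH dehydrogenase, at 10.5% (0.125% of counts in Atepl1-2, 0.0516% in WT), ATMG00160 at 9.54%, atp1, a subunit of the ATP synthase, at 7.06%, and rps3, a protein of the small ribosomal subunit, at 7.03%. ATMG00510, ATMG00520 and ATMG00270 gave 6.24%, 5.02% and 4.11%. In all, 83 rows were higher and 43 lower in Atepl1-2, the most negative being atp6-1 at -2.52% and ATMG01200 at -2.04%. Without the 8 largest, the remaining 126 rows together still stood 1.21 times higher, at 1.10% of counts in Atepl1-2 and 0.906% in WT.

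In second-set Atepl1-2 the difference from the 4 WT libraries was 1.55 percentage points, and in Ateaf1-1 it was 1.44. The top contributor to the Atepl1-2 difference was nad4, another NADH dehydrogenase subunit, at 13.6% (0.349% of counts, against 0.138% in WT), followed by ATMG01360 at 12.9%, nad9 at 8.47% (0.187%, against 0.0556% in WT), ATMG00160 at 7.42% and ATMG00270 at 6.69%. In Ateaf1-1 the order began with ATMG01360 at 17.5% (0.558%, against 0.305% in WT), nad4 at 14.7%, nad9 at 6.52%, ATMG00510 at 5.61% and atp1 at 5.30%. The 8 largest held 63.5% of the difference in Atepl1-2 and 62.6% in Ateaf1-1, and the other 126 rows were together 1.69 and 1.60 times higher than in WT. In Atepl1-2 75 rows were higher and 52 lower, and in Ateaf1-1 77 were higher and 51 lower.

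For glk the difference from WT was 0.485 percentage points. Of it, nad4 gave 25.2% and atp6-1, a membrane subunit of the ATP synthase, 11.8%, while 78 rows were lower and 48 higher than in WT of both label sets together. Against glk the picture was broader in both mutants: 98 rows were higher and 21 lower in Atepl1-2, and 99 higher and 24 lower in Ateaf1-1.

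**Figure D2:**
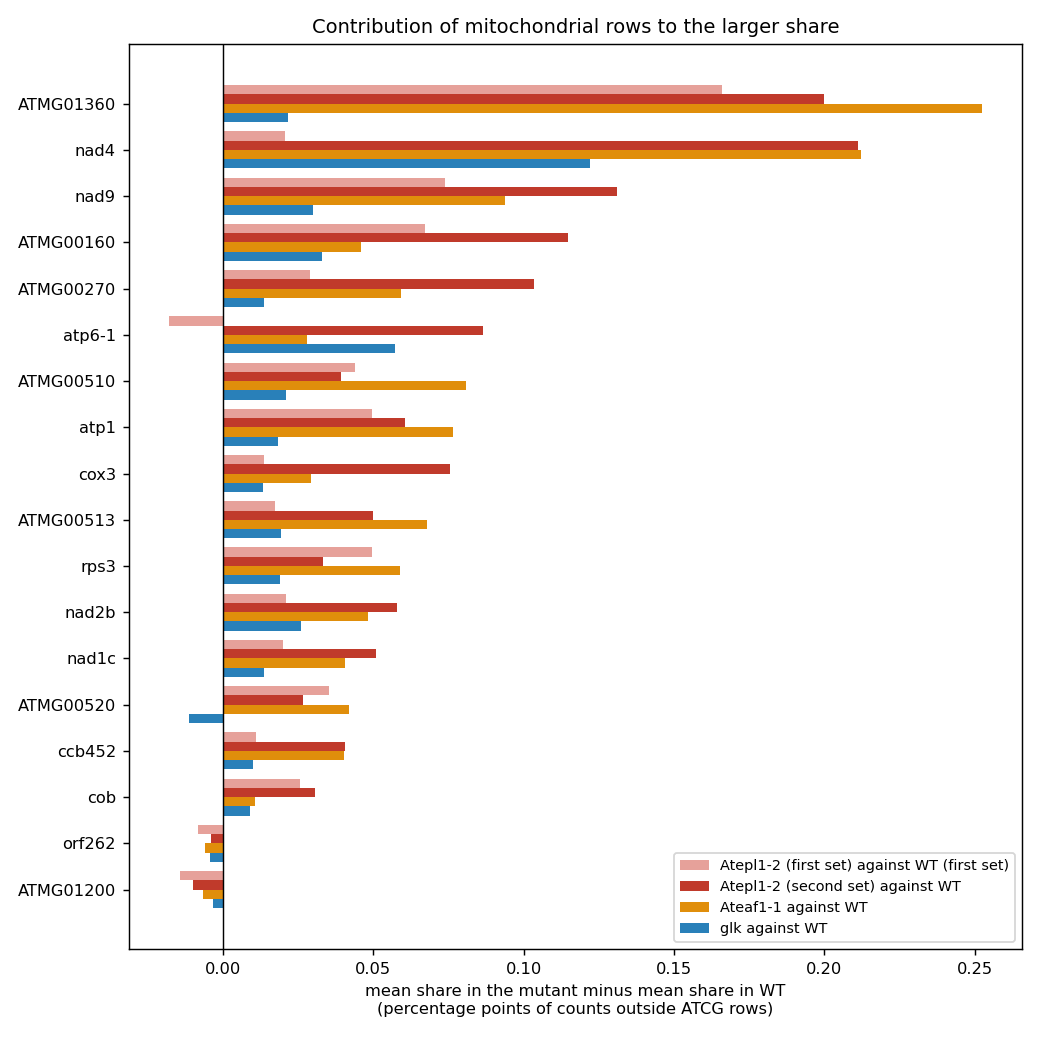
Contribution of single ATMG rows to the larger mitochondrial share, as the mutant mean minus the WT mean in percentage points of counts outside ATCG rows, for each comparison with WT. ATMG01360 is the longest bar in first-set Atepl1-2 (23.5% of the difference) and Ateaf1-1 (17.5%), and nad4 in second-set Atepl1-2 (13.6%) and glk (25.2%).

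Within the mitochondrial counts the composition differed by genotype and by label set. ATMG01360 was the most counted row in every library, the 10 most counted rows held 63.9% to 68.6% of ATMG counts, and the 20 most counted held 84.8% to 88.9%. ATMG01360 itself took 18.0%, 19.2% and 19.5% in first-set Atepl1-2 against 17.7%, 16.0% and 17.9% in first-set WT, a narrow gap. In the second set it took 16.5%, 15.4% and 12.2% in Atepl1-2, 18.5%, 13.6% and 17.3% in Ateaf1-1 and 13.6% to 13.9% in glk, against 13.5% in WT, so that the ranges of Atepl1-2 and Ateaf1-1 took in or came close to the WT value.

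Of the heavily counted rows, nad9 had the clearest shift in composition. Its part of ATMG counts was 4.77%, 4.58% and 5.54% in first-set Atepl1-2, against 2.85%, 2.77% and 2.85% in first-set WT. In the second set it was 4.85%, 5.00% and 6.38% in Atepl1-2, 4.49%, 4.48% and 4.47% in Ateaf1-1 and 3.60%, 3.49% and 3.70% in glk, against 3.21% in WT. All 9 Atepl1-2 and Ateaf1-1 libraries lay above all glk and WT libraries of both sets. In the other direction, ATMG01200 took 0.785%, 0.784% and 0.708% in first-set Atepl1-2, against 1.92%, 1.88% and 1.72% in first-set WT. In the second set it took 0.526% to 0.748% in Atepl1-2, 0.721% to 0.802% in Ateaf1-1 and 1.09% to 1.35% in glk, against 1.26% in WT, again without overlap between those mutants and the rest.

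The part of nad4 differed more between label sets than between genotypes. It was 5.50%, 5.44% and 5.13% in first-set Atepl1-2 against 6.27%, 6.46% and 6.13% in first-set WT, and 8.90% to 11.4% in Atepl1-2, 9.01% to 11.5% in Ateaf1-1 and 10.0% to 11.4% in glk of the second set, against 9.76% in WT. The place of nad4 at the head of the second-set contributions therefore moves with the label set of the WT libraries, and within the first set nad4 took a smaller part in Atepl1-2.

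**Figure D3:**
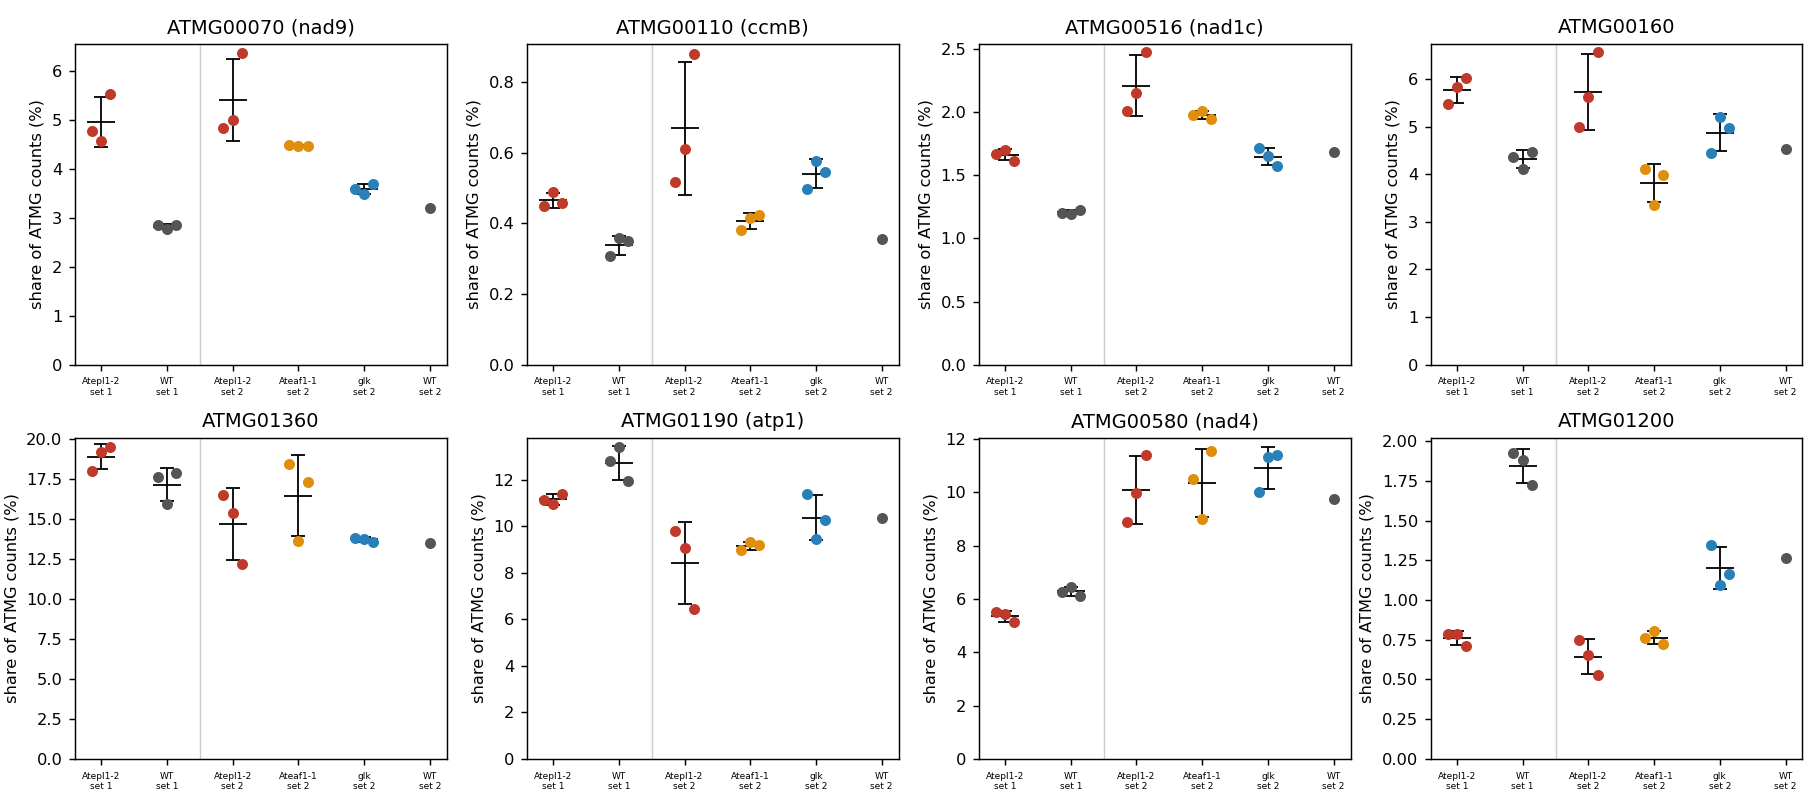
Share of ATMG counts taken by 8 rows, with 1 point per library and lines for the group mean ± SD. For nad9 the Atepl1-2 and Ateaf1-1 libraries sit between 4.47% and 6.38%, above glk and WT at 2.77% to 3.70%, while for ATMG01200 they sit between 0.526% and 0.802%, below glk and WT.

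Changes of single rows were tested in edgeR fits across all genes, and a row was called where its false discovery rate (FDR, Benjamini-Hochberg) lay below 0.01 and it changed 1.5-fold or more. In first-set Atepl1-2, 13 of 108 tested rows were called higher and 9 lower, where 23.3% of all genes were called higher and 21.8% lower (45.1% in either direction). The median log2 fold change of the rows was 0.15 and that of all genes 0.05. Against the 4 WT libraries, 13 of 113 rows were called higher and 11 lower in second-set Atepl1-2 (16.8% and 13.5% of all genes, 30.3% together) and 13 higher and 9 lower in Ateaf1-1 (13.6% and 12.5%, 26.1% together), with medians of 0.06 and 0.08 beside 0.05 and 0.07 for all genes. In these comparisons the share of rows called lay under that of all genes in each direction. The medians of the second-set mutants moved with the WT libraries used. Against WT replicate 4 alone they were 0.80 in Atepl1-2 and 0.91 in Ateaf1-1, beside 0.11 and 0.14 for all genes. Without WT replicate 4 they were -0.13 and -0.14, beside 0.09 and 0.11.

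In glk no row was called higher and 11 were called lower, where 4.18% of all genes were called higher and 7.45% lower (11.6% together). At an FDR under 0.05 the edgeR count was 2 higher and 39 lower, where 1879 and 2630 of all 20733 genes were called. DESeq2 called 1 row higher and 34 lower, beside 1216 and 2491 genes, and limma-voom called 0 rows in either direction, beside 659 and 1052 genes. Against glk the calls went one way: 17 rows were higher and 0 lower in Atepl1-2 (15.6% and 11.3% of all genes, 27.0% together) and 20 higher and 0 lower in Ateaf1-1 (12.1% and 9.58%, 21.7% together), with median log2 fold changes of 0.77 and 0.97 beside 0.04 and 0.05 for all genes. DESeq2 also called 0 rows lower in both, beside 2812 and 2478 genes, and at an FDR under 0.05 edgeR called 0 and 1 lower, beside 3611 and 3140 genes.

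The balance of calls depended on the method. With limma on log2(TPM + 1), where TPM is the deposited level scaled for transcript length and library, 59 rows were higher and 0 lower in first-set Atepl1-2, 46 and 0 in second-set Atepl1-2, 49 and 0 in Ateaf1-1, and 3 and 1 in glk, and against glk 34 and 0 in Atepl1-2 and 35 and 0 in Ateaf1-1. All genes leaned the same way in that fit, with 6542 higher and 979 lower of 26123 in first-set Atepl1-2, 7279 and 375 of 27604 in second-set Atepl1-2, 7665 and 391 in Ateaf1-1 and 982 and 376 in glk. It differs from the edgeR fits in test, unit and filter at once. With another scaling alone, DESeq2 size factors in edgeR, the rows called higher and lower were 13 and 9 in first-set Atepl1-2, 13 and 11 in second-set Atepl1-2 and 12 and 9 in Ateaf1-1. With limma-voom they were 14 and 10, 12 and 1, and 13 and 0 in the same order.

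**Figure D4:**
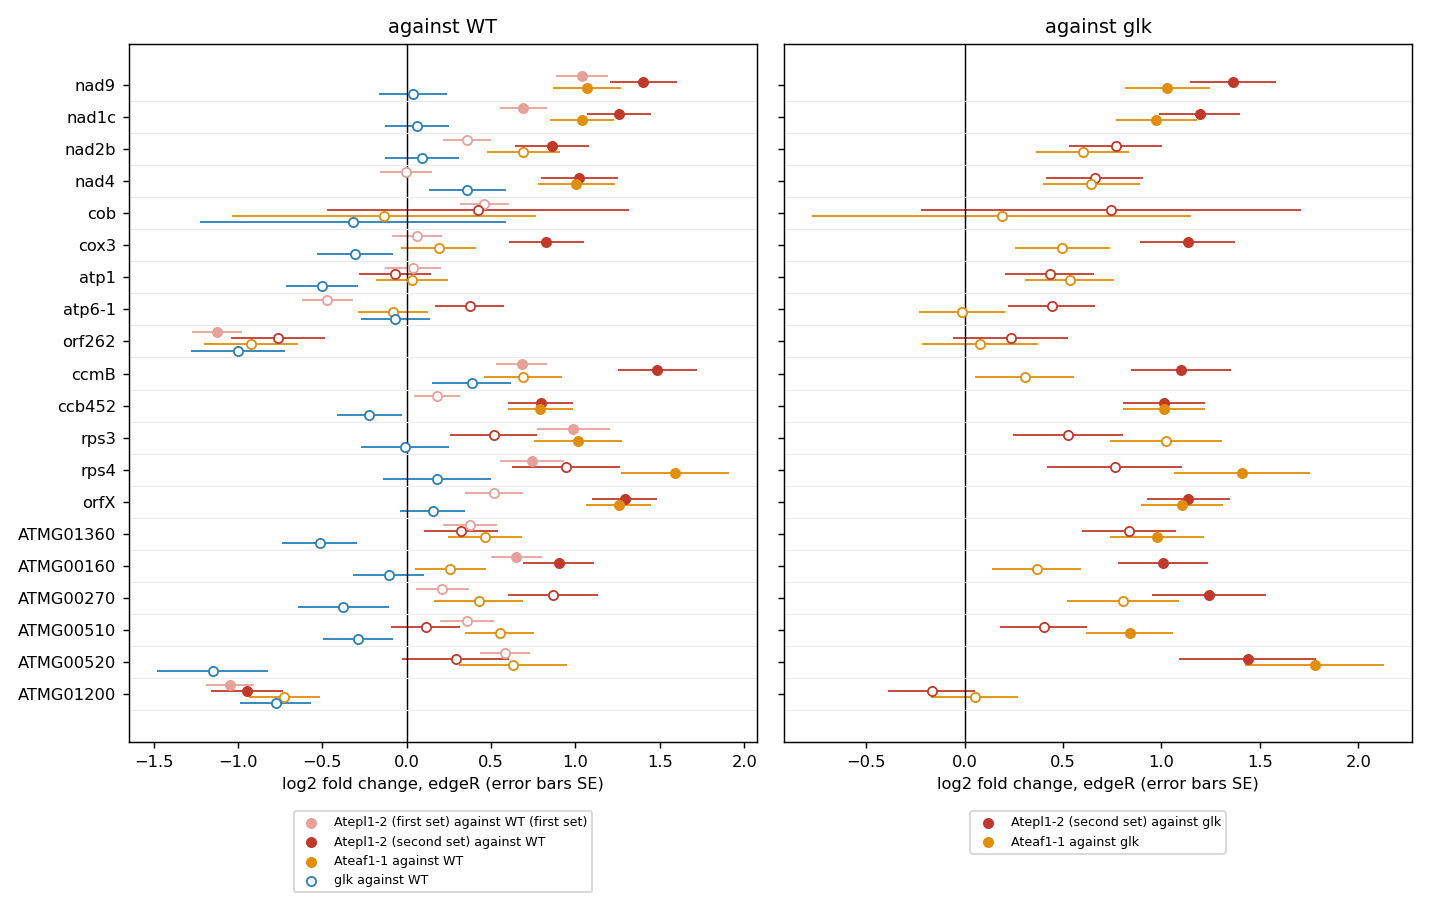
log2 fold changes of named mitochondrial rows in the edgeR fits, with standard errors, in the comparisons with WT and with glk. Filled points were called and open points were not. For nad9 the values are 1.04, 1.40 and 1.07 in first-set Atepl1-2, second-set Atepl1-2 and Ateaf1-1 against WT, and 0.04 in glk.

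Of the rows with a name in the sources used here, 6 encode parts of NADH dehydrogenase, the first complex of the respiratory chain. In second-set Atepl1-2 and in Ateaf1-1, 4 of the 6 were called higher than in WT (median log2 fold changes 1.14 and 1.02), beside 16.8% and 13.6% of all genes. In first-set Atepl1-2 it was 2 of 6 (median 0.18), beside 23.3% of all genes, and in glk 0 of 6 (median 0.08), beside 4.18%. The 4 in Ateaf1-1 included nad3, whose counts split by label set as given below. None of the 6 rows was called lower in any comparison with WT by edgeR.

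Among them nad9, which has no copy on chromosome 2, was called in all 5 comparisons of Atepl1-2 or Ateaf1-1 with WT or glk. Its level was 1234, 1195 and 1332 CPM outside ATCG rows in first-set Atepl1-2, against 455, 564 and 528 in first-set WT. In the second set it was 1611, 1751 and 2241 CPM in Atepl1-2, 1621, 1225 and 1637 in Ateaf1-1 and 892, 809 and 868 in glk, against 675 in WT. Every Atepl1-2 and Ateaf1-1 library was above every WT and glk library. The edgeR log2 fold change was 1.04 (SE 0.15, FDR 0.000293) in first-set Atepl1-2, 1.40 (SE 0.20, FDR 8.85e-05) in second-set Atepl1-2 and 1.07 (SE 0.20, FDR 0.00087) in Ateaf1-1. It was 1.36 (SE 0.22, FDR 0.000234) for Atepl1-2 over glk, 1.03 (SE 0.22, FDR 0.00225) for Ateaf1-1 over glk and 0.04 (FDR 0.915) for glk over WT. As a level per transcript length, nad9 stood at 778 ± 45.0 TPM in first-set Atepl1-2 and 237 ± 3.78 TPM in first-set WT (SD, n = 3 each). TPM is scaled over all rows, and the ATCG share differed between these groups. The gap in TPM is therefore not on the scale of the CPM values above.

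The row nad1c, 1 of several rows that carry parts of the trans-spliced nad1 transcript, behaved alike. It stood at 432, 445 and 388 CPM in first-set Atepl1-2, against 192, 243 and 227 in first-set WT. Second-set values were 667, 752 and 869 CPM in Atepl1-2, 713, 550 and 712 in Ateaf1-1 and 424, 383 and 370 in glk, against 353 in WT. Neither mutant overlapped with WT or glk of its set. Its edgeR log2 fold change was 0.69 (SE 0.14, FDR 0.00185), 1.26 (SE 0.19, FDR 0.000137) and 1.04 (SE 0.19, FDR 0.000723) in first-set Atepl1-2, second-set Atepl1-2 and Ateaf1-1.

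For nad4 the calls differed between the sets. First-set Atepl1-2 had 1422, 1419 and 1233 CPM against 1003, 1313 and 1136 in WT, and second-set libraries had 2959, 3491 and 4014 in Atepl1-2, 3788, 2466 and 4234 in Ateaf1-1 and 2476, 2630 and 2680 in glk, against 2051 in WT. The second-set WT library lay above all first-set libraries of either genotype. The edgeR log2 fold change was 1.02 (FDR 0.00254) in second-set Atepl1-2 and 1.00 (FDR 0.00333) in Ateaf1-1, but -0.00 (SE 0.16) in first-set Atepl1-2, and against glk 0.66 (FDR 0.0453) and 0.64 (FDR 0.0584), which were not called.

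Of the others, nad2b was called in second-set Atepl1-2 alone (0.86, FDR 0.00583), at 1002, 1062 and 979 CPM against 363, 449 and 392 CPM in first-set and 532 CPM in second-set WT. For nad3 the split between sets was wide, with 0, 0 and 141 counts in first-set Atepl1-2 against 95, 188 and 100 counts in first-set WT, and 1355 to 3250 counts in every second-set library. Its full nuclear copy, AT2G07751, held 707, 514 and 392 counts in first-set Atepl1-2 and 160, 256 and 331 in first-set WT. In the second set the copy held 593 counts in Atepl1-2 replicate 3 and 0 elsewhere. Summed over both rows, first-set Atepl1-2 stood at 50.4 CPM against 38.3 in first-set WT, with overlap. The nad3 row was called higher in Ateaf1-1 (1.96, FDR 0.00881), where the 4 WT libraries come from both sets. There the ratio of means was 4.41 for the row and 2.83 for the sum. For nad1a no comparison with WT was called, and Ateaf1-1 over glk was (1.41, FDR 0.00184).

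The cytochrome c maturation genes attach haem to cytochromes c. ccmB, the other row with a name in the sources used here but no match on chromosome 2, stood at 116, 128 and 110 CPM in first-set Atepl1-2, against 49.0, 72.7 and 64.7 in first-set WT. In the second set it stood at 172, 214 and 309 CPM in Atepl1-2, 138, 113 and 156 in Ateaf1-1 and 123, 134 and 128 in glk, against 74.9 in WT. Atepl1-2 was above WT and glk without overlap, whereas Ateaf1-1 overlapped with glk. The edgeR log2 fold change was 0.68 (SE 0.15, FDR 0.00316) in first-set Atepl1-2 and 1.48 (SE 0.23, FDR 0.000194) in second-set Atepl1-2, and 0.69 (FDR 0.0295, not called) in Ateaf1-1. The row ccb452 was called at 0.79 in both second-set Atepl1-2 (FDR 0.00426) and Ateaf1-1 (FDR 0.005), and at 1.01 in each over glk (FDR 0.00156 and 0.00193), but not in first-set Atepl1-2 (0.18).

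Of 4 named ribosomal protein rows, rps3 and rps4 held enough counts to be tested. rps3 stood at 992, 815 and 781 CPM in first-set Atepl1-2, against 300, 503 and 299 in first-set WT. Second-set values were 875, 819 and 408 CPM in Atepl1-2, 934, 873 and 1060 in Ateaf1-1 and 678, 473 and 513 in glk, against 362 in WT. Atepl1-2 replicate 4 was far below the other second-set Atepl1-2 libraries. rps3 was called in first-set Atepl1-2 (0.99, SE 0.22, FDR 0.00307) and Ateaf1-1 (1.01, SE 0.26, FDR 0.00691), not in second-set Atepl1-2 (0.51, FDR 0.121). rps4 was called in the same pair of comparisons, at 0.74 (FDR 0.00694) and 1.59 (FDR 0.00145), but it has a full nuclear copy, AT2G07734, and took 60.1% of the counts of that pair in Ateaf1-1 replicate 2 against 21.6% and 22.2% in the other Ateaf1-1 libraries.

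orfX, annotated as a translocase of the Sec-independent pathway, which carries folded proteins across membranes in bacteria, stood at 181, 162 and 151 CPM in first-set Atepl1-2, against 73.3, 122 and 96.8 in first-set WT. Second-set values were 312, 335 and 353 CPM in Atepl1-2, 315, 319 and 333 in Ateaf1-1 and 189, 160 and 184 in glk, against 136 in WT. The mutants did not overlap with WT or glk of their set. Its edgeR log2 fold change was 1.29 (SE 0.19, FDR 0.000125) in second-set Atepl1-2 and 1.26 (SE 0.19, FDR 0.000182) in Ateaf1-1, and 0.52 (FDR 0.0251, not called) in first-set Atepl1-2.

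The ATP synthase, which makes ATP from the proton gradient, had 3 named rows, none of which was called higher in any comparison. For atp1, the second most counted row in first-set Atepl1-2, the levels were 2875, 2857 and 2738 CPM in first-set Atepl1-2, against 2045, 2722 and 2210 in first-set WT. The edgeR log2 fold change was 0.04, -0.07, 0.03 and -0.50 in first-set Atepl1-2, second-set Atepl1-2, Ateaf1-1 and glk, so its contribution to the larger share came without a change relative to the typical gene that passed the test. atp6-1 stood at 1090, 1039 and 993 CPM in first-set Atepl1-2 against 1060, 1323 and 1272 in first-set WT (log2 fold change -0.47, FDR 0.0202). Against WT cox3, a subunit of cytochrome c oxidase, was called in second-set Atepl1-2 only (0.83, FDR 0.00815), at 1132, 1256 and 1663 CPM against 501, 609 and 633 in first-set and 635 in second-set WT.

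Several of the largest contributors have no gene name in the sources used here and are given by identifier. Those sources do not show which rows carry cox1 and atp4, which had no match on chromosome 2. Whether these unnamed contributors have a copy there was therefore not assessed. ATMG01360 stood at 4654, 5015 and 4689 CPM in first-set Atepl1-2, against 2824, 3244 and 3309 in first-set WT. In the second set it stood at 5495, 5378 and 4286 CPM in Atepl1-2, 6663, 3723 and 6343 in Ateaf1-1 and 3429, 3196 and 3188 in glk, against 2835 in WT. Neither mutant overlapped with its WT or glk libraries. In the fit ATMG01360 was called in Ateaf1-1 over glk only (0.98, SE 0.24, FDR 0.0058), and over WT its log2 fold change was 0.37 (FDR 0.0663) in first-set Atepl1-2, 0.32 (FDR 0.251) in second-set Atepl1-2 and 0.46 (FDR 0.106) in Ateaf1-1.

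ATMG00160 was called in Atepl1-2 of both sets, at 0.65 (FDR 0.00399) and 0.90 (FDR 0.00329), with 1414, 1522 and 1445 CPM in first-set Atepl1-2 against 697, 837 and 829 in first-set WT. In Ateaf1-1 it stood at 1482, 917 and 1462 CPM and was not called (0.26, FDR 0.346). ATMG00520 was called higher over glk in Atepl1-2 (1.44, FDR 0.0047) and Ateaf1-1 (1.78, FDR 0.00144). Its WT level differed between the label sets, with a mean of 455 CPM in first-set WT and 199 CPM in second-set WT. Second-set WT lay below all 3 glk libraries, but against all 4 WT libraries ATMG00520 was among the 3 most negative contributors in glk. The open reading frame orf117, whose product is of unknown function, was called in first-set Atepl1-2 (1.05, FDR 0.000729), second-set Atepl1-2 (0.98, FDR 0.00687) and Ateaf1-1 (1.23, FDR 0.00183).

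Rows called lower in first-set Atepl1-2 included ATMG01200, at 203, 205 and 170 CPM against 308, 382 and 319 CPM in WT (log2 fold change -1.05, SE 0.14, FDR 0.000164), and the open reading frame orf262 (-1.12, SE 0.15, FDR 0.000133). ATMG01200 was also called lower in second-set Atepl1-2 (-0.95, FDR 0.00259), where the levels were 248, 229 and 185 CPM against 266 CPM in second-set WT. atp9 was called lower in first-set Atepl1-2 (-1.56, SE 0.31, FDR 0.00185) on 78, 114 and 50 counts against 200, 202 and 118 counts in WT. Because the identical nuclear row AT2G07671 held 30519 to 143563 counts, that call rests on a very small part of the reads for the sequence.

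Most rows called lower against the 4 WT libraries followed the label set. Of 11 rows called lower in second-set Atepl1-2, WT replicate 4 was at or below the highest mutant library in 9. This also held for 8 of 9 rows in Ateaf1-1 and 7 of 11 in glk. For all 13 rows called higher in each of Atepl1-2 and Ateaf1-1, WT replicate 4 was below the lowest mutant library. WT replicate 4 was among the libraries that gave those calls, so this is not a separate check of them. Some of these rows, nad3 and nad4 among them, also differed between the label sets. Among rows called lower, the extreme case was ATMG00030. It had 1169, 927 and 645 counts in first-set Atepl1-2, 617, 1214 and 1048 in first-set WT and 0 to 9 in every second-set library, WT included. Among rows with at least 10 counts, 22 were over 10-fold higher in first-set WT than in WT replicate 4, 2 were over 10-fold higher in WT replicate 4 and 98 lay within 10-fold.

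Reads that fit a mitochondrial gene and its nuclear copy were divided unevenly between libraries. The row cob, for cytochrome b of the third respiratory complex, held 14087, 43 and 14383 counts in Ateaf1-1, 14638, 14272 and 12070 in second-set Atepl1-2 and 7443, 6598 and 7175 in glk, against 5324 in second-set WT. In Ateaf1-1 replicate 2 the nuclear row AT2G07727 held 71099 counts, and cob took 0.0604% of the pair, where it took 16.1% to 23.9% in all other libraries. The row rpl5 of the same library held 1453 counts, against 0 in both other Ateaf1-1 libraries. Neither row can be read alone there.

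Summed over both rows, cob was higher in the mutants. The sum was 3893 ± 190 CPM in first-set Atepl1-2 and 2175 ± 273 CPM in first-set WT (SD, n = 3 each), a ratio of 1.79, and against the 4 WT libraries the ratio was 1.56 in second-set Atepl1-2, 1.72 in Ateaf1-1 and 1.03 in glk. The mutants did not overlap with WT, and glk did. The row alone gave ratios of 1.63, 1.76, 1.26 and 1.22. For rpl5 and its copy the summed ratio was 2.14 in first-set Atepl1-2, 1.38 in second-set Atepl1-2, 1.43 in Ateaf1-1 and 0.975 in glk, and all but the first overlapped with WT. For rps4 and its copy it was 2.39 in first-set Atepl1-2, 2.70 in second-set Atepl1-2, 2.73 in Ateaf1-1 and 1.66 in glk. For atp9 and AT2G07671 it was 0.922, 1.62, 0.991 and 1.21, and for atp1 and its copy 1.19, 1.24, 1.27 and 1.08, in the same order.

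**Figure D5:**
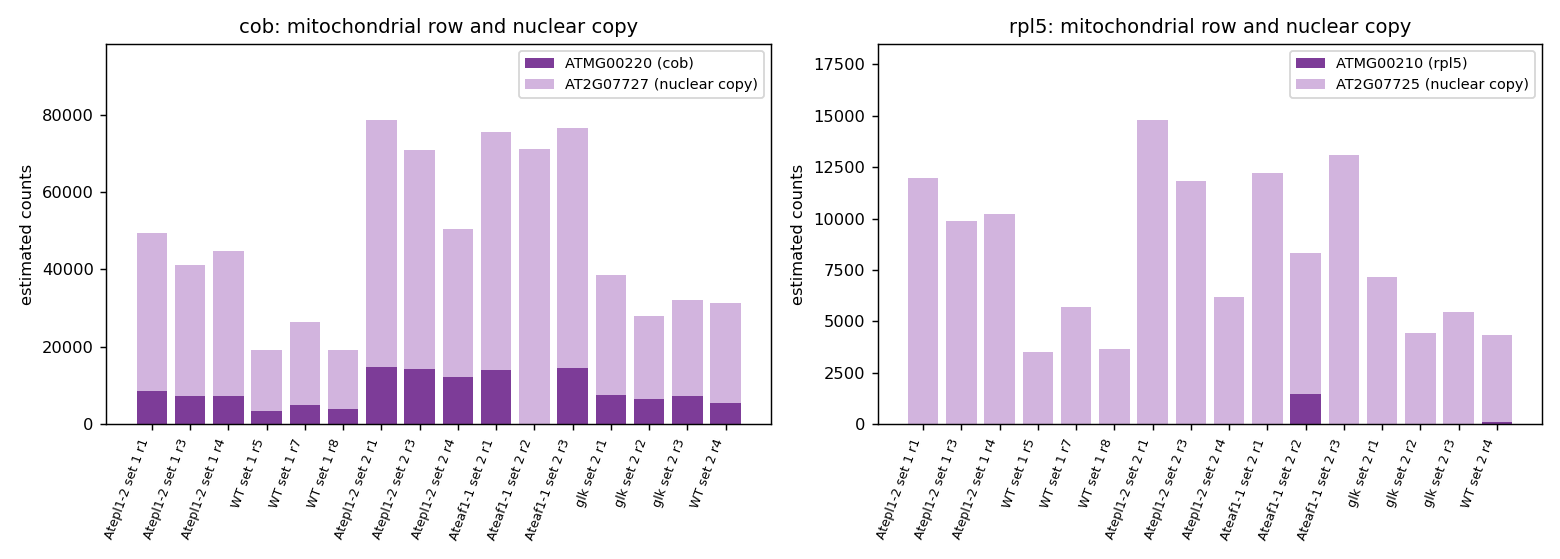
Estimated counts of a mitochondrial row and its nuclear copy, stacked, in each library, for cob (left) and rpl5 (right). For cob the mitochondrial row takes 16.1% to 23.9% of the pair except in Ateaf1-1 replicate 2, where it takes 0.0604%, while the stack as a whole stays near that of the other Ateaf1-1 libraries. For rpl5 the mitochondrial row is visible in that library, at 1453 counts, and barely in WT replicate 4, at 85.

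Over the 110 nuclear rows from AT2G07600 to AT2G07835, where the chromosome 2 copy lies, the share of counts outside ATCG rows was 1.26 times that of WT in first-set Atepl1-2, 1.52 in second-set Atepl1-2, 1.34 in Ateaf1-1 and 1.12 in glk. With these rows added to the mitochondrial ones the ratios were 1.33, 1.70, 1.59 and 1.20, so the larger share in the mutants was also present when reads placed on the copy were included (exact permutation p = 0.1, 0.0286, 0.0286 and 0.0571). Of 91 copy rows tested in first-set Atepl1-2, 9 were called higher and 6 lower (23.3% and 21.8% of all genes). Of 97 tested in the other comparisons, 7 were higher and 12 lower in second-set Atepl1-2 (16.8% and 13.5% of all genes), 4 and 8 in Ateaf1-1 (13.6% and 12.5%) and 0 and 20 in glk (4.18% and 7.45%). These comparisons use WT of both sets, and some copy rows split by label set. AT2G07641 held 1250 to 1901 counts in first-set WT and 3 to 19 in every second-set library, WT included. For AT2G07739 the counts were 2724 to 4170 and 87 to 300. Set and genotype cannot be told apart for such rows.

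Few nuclear partners of the mitochondrial genes were called higher. Of 37 nuclear genes for respiratory complexes, ATP synthase, cytochrome c and mitochondrial RNA polymerases, 2 were called higher and 9 lower in first-set Atepl1-2, 0 and 2 in second-set Atepl1-2, 0 and 3 in Ateaf1-1 and 1 and 0 in glk, with median log2 fold changes of -0.38, -0.08, -0.14 and -0.24. Of all genes, 23.3% were called higher and 21.8% lower in first-set Atepl1-2. The shares were 16.8% and 13.5% in second-set Atepl1-2, 13.6% and 12.5% in Ateaf1-1, and 4.18% and 7.45% in glk. The medians of all genes were 0.05, 0.05, 0.07 and 0.02 in the same order. In first-set Atepl1-2, 4 of 7 ATP synthase genes were called lower, among them AT5G08690 (-1.27) and AT5G47030 (-1.26). The gene AT1G22450, a subunit of cytochrome c oxidase, was called lower in first-set Atepl1-2 (-1.20), second-set Atepl1-2 (-1.31) and Ateaf1-1 (-0.95). Of the 2 RNA polymerase genes, AT5G15700 was called higher in first-set Atepl1-2 (1.40). The 1 partner called higher in glk was also an RNA polymerase gene. The median log2 fold change of the 2 was 0.57 in first-set Atepl1-2, 0.49 in second-set Atepl1-2, 0.54 in Ateaf1-1 and 0.94 in glk.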

How the data were processed

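Per the deposited tables and the study's methods, the authors removed adapters, poor-quality bases and rRNA reads with BBDuk2, dropped reads under 50 bp, and quantified genes with Salmon (version 0.13.1 in the submitters' processing notes) against Araport11 on TAIR10, with corrections for sequence and GC bias. The authors deposited Salmon's estimated counts per gene as whole numbers, and TPM. The counting divides reads shared by several transcripts, which matters for copied genes. The ChIP-seq mapping summary was not used.

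Here, counts were tested with edgeR 4.0.16 (quasi-likelihood F test, filterByExpr, TMM) in R 4.3.3, over 13 libraries (20733 genes, biological coefficient of variation 0.283) or the 6 first-set libraries (18840 genes, 0.158). Calls needed an FDR under 0.01 and 1.5-fold. limma 3.58.1, DESeq2 1.42.0, label set as a term, single WT sets and left-out libraries were the alternatives. Shares were compared by two-sided exact permutation tests. Depth was 22330141 to 39666320 counts per library. Coding sequences were matched with BLAST 2.17.0. The edgeR script was tested on simulated data.

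Members, lists and tests were chosen with earlier results of these data known. Genes named are those of a list of 41 mitochondrial identifiers, 38 of them in the table, the 8 largest and 3 most negative contributors in each comparison with WT, rows called against the majority direction, and called nuclear copies and partners. Of the list, 20 had a name in the sources used here, and rows without one are given by identifier. orf117 and ATMG00400 were named after their values were seen. The labels call replicates biological repeats.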

Additional observations from a re-analysis of the deposited data

Results flagged for a closer look

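In the 4 WT libraries, WT replicate 4 stood apart from the 3 first-set libraries for rps4 (ATMG00290), with a gap of 0.857 of the group's whole range, and for nad3 (ATMG00990), with a gap of 0.912, both past Dixon's critical value for 4 samples. Levels of rps4 were 28.3, 22.3 and 23.6 CPM outside ATCG rows in the first-set libraries and 64.3 in WT replicate 4, and those of nad3 were 9.86, 17.8 and 10.8 and 99.4. Summed with its identical nuclear copy AT2G07734, rps4 stood at 127.9, 200.8 and 135.7 CPM in the first-set libraries and 156.4 in WT replicate 4, which then lay inside the group, and the mitochondrial row took 11.1% to 22.2% of that sum in the first-set libraries and 41.1% in WT replicate 4. For nad3, the full nuclear copy AT2G07751 held 160, 256 and 331 counts in the first-set WT libraries and 0 in WT replicate 4. Summed over both rows, first-set WT stood at 38.3 ± 10.5 CPM (SD, n = 3). The size of the nad3 gap therefore also depended on how reads were divided with the copy, and the gap of the sum was not computed. In all, 28 groups were examined, of which chance flags about 1 in 20.

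In the edgeR fit with an interaction term, the fitted Atepl1-2 effect on 2 rows differed between the label sets, as second minus first set on the log2 scale, by -9.97 for the row of rpl5 (ATMG00210, FDR 0.0034) and by 6.97 for ATMG00400 (FDR 0.0057). Both rest on second-set WT, which is 1 library. The counts of rpl5 were 0, 0 and 0 in second-set Atepl1-2 against 85 in second-set WT, and 4, 3 and 4 in first-set Atepl1-2 against 2, 1 and 2 in first-set WT. For ATMG00400 they were 26, 24 and 25 in second-set Atepl1-2 against 0 in second-set WT, and 228, 220 and 225 in first-set Atepl1-2 against 149, 195 and 136 in first-set WT. Its annotated match on chromosome 2, AT2G07835, held 309, 176 and 71 counts in second-set Atepl1-2 and 71 in second-set WT. In the first set AT2G07835 held 564, 522 and 505 counts in Atepl1-2 and 315, 416 and 242 in WT. How reads were divided between these rows was not tested. Fitted values against 0 counts depend on the prior count. The rpl5 row held at most 1.97% of the reads of its pair with the identical copy AT2G07725 in these libraries, and the pair as a whole was higher in Atepl1-2 in both sets, at 924 CPM against 431 in the first and 557 against 317 in the second, so no difference in the response of rpl5 is read from it. Of 119 mitochondrial rows in this fit, 2 passed an FDR under 0.01, as did 178 of 21262 genes.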

How the results depend on the processing

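The ratio of the mitochondrial shares kept its direction under every alternative run. For glk against WT it was 1.20 with the chromosome 2 rows added (exact permutation p = 0.0571) and 1.23 in TPM (p = 0.0857), no longer past the threshold. Without 1 library at a time, the ratio over all counts ran over 1.62 to 1.73 in first-set Atepl1-2, 2.37 to 2.54 in second-set Atepl1-2, 2.42 to 2.57 in Ateaf1-1 and 1.22 to 1.31 in glk, and against glk over 1.87 to 2.02 in Atepl1-2 and 1.90 to 2.05 in Ateaf1-1. Outside ATCG rows the ranges were 1.30 to 1.47, 1.73 to 1.88, 1.67 to 1.92, 1.19 to 1.30, 1.43 to 1.48 and 1.33 to 1.53 in the same order.

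Counts of called rows depended on the setting. In first-set Atepl1-2 (22 rows) limma called 59, 66 and 63 on log2(TPM + 1), log2(TPM + 0.1) and log2(TPM + 1) with a mean TPM of at least 1. In second-set Atepl1-2 (24) these gave 46, 47 and 58, an FDR under 0.05 gave 44, limma-voom 13, label set as a term 15, WT replicate 4 alone 5 and the 2 groups alone 11. In Ateaf1-1 (22) they gave 49, 48, 59, 45, 13, 10, 4 and 4. In glk (11) they gave 4, 4, 7, 41, 0, 0, 0 and 3, and DESeq2 gave 35. For Atepl1-2 over glk (17), limma gave 34, 35 and 40, the looser FDR 31, DESeq2 29 and the 2 groups alone 27. For Ateaf1-1 over glk (20) limma gave 35, 37 and 48, the looser FDR 40, DESeq2 33 and label set as a term 38. Leaving out 1 library gave 13 to 20, 10 to 42, 8 to 39, 2 to 45, 5 to 15 and 2 to 16 in the order above, with the top values of 42, 39 and 45 reached without WT replicate 4. In first-set Atepl1-2 the 13 came without WT replicate 8 or Atepl1-2 replicate 3. Counts also moved by over 1.5 times without any library but Atepl1-2 replicate 1 in second-set Atepl1-2, any but WT replicate 7 in Ateaf1-1, and any at all in glk. Over glk they did so without Atepl1-2 replicate 4 (11) or any glk library (5 or 6), and, for Ateaf1-1, without Ateaf1-1 replicate 2 (12) or any glk library (2 or 8). With each row summed with its nuclear copy, an alternative chosen after seeing the data, the counts were 21, 29, 26, 16, 21 and 23.

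With a replicate block, 41 rows were called for Atepl1-2 over glk and 17 for Ateaf1-1 over glk. The same-numbered libraries correlated at 0.02, 0.14 and -0.06 for Ateaf1-1 and glk and at 0.23 and 0.04 for Atepl1-2 and glk, so the numbers were not taken as pairs. No block was possible against WT, which shares at most 1 number with a mutant.

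Over 53 calls of named rows and 939 alternatives, 739 kept the call, 195 lost it and 5 turned direction: ATMG01200 in second-set Atepl1-2 was 0.0509, 0.0510 and 0.0509 on the log2 scale in the 3 TPM settings, and with label set as a term nad3 was -0.51 and ATMG00030 was 0.35 in Ateaf1-1. The call of nad9 held under all alternatives in Atepl1-2 of both sets against WT and over glk. It was lost in Ateaf1-1 with WT replicate 4 alone, and for Ateaf1-1 over glk without any one glk library. The causes of these shifts were not tested.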
